A study of Mus musculus with 8 samples.

Results

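The Ly6 surface antigens considered here are 8 genes of the mouse Ly6 cluster, *Ly6a*, *Ly6c1*, *Ly6c2*, *Ly6d*, *Ly6e*, *Ly6g*, *Ly6i* and *Ly6k*. They were taken by gene name from a table of 47493 genes, and all 8 were found. Their RNA was compared between 2 fractions of endogenous CD8+ T cells from each of 4 female C57BL/6 mice aged 6 to 8 weeks. One fraction was enriched for high IL-18Rα (IL-18Rαhi) on a magnetic column, and the other was what ran through the column (flow-through, the control). Both fractions came from mice with the same history. The mice carried B16F10 melanoma cells (200000 injected into the skin on day 0), had cyclophosphamide (300 mg/kg) on day 3, and received 2000000 Pmel-1 T cells on day 5 with IL-2 (10000 IU a day for 3 days). They were then given the CD4-depleting antibody GK1.5 (200 µg each week for 3 weeks from day 10), and the cells were collected on day 25 from inguinal lymph node and spleen. No group without tumor, drug, transfer or CD4 depletion was part of the comparison. The CD8+ T cells were isolated by removing other cells and by the lack of Thy1.1, which marks the transferred Pmel-1 cells.

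Ly6 proteins are small, disulfide-rich domains of the three-finger fold, and most are tethered to the cell surface by a glycosylphosphatidylinositol (GPI) anchor. In mouse T cells Ly6A (Sca-1) and Ly6C rise on activated and memory CD8+ cells and respond to interferons, and Ly6E is a GPI-anchored interferon-stimulated protein with broad expression. Ly6D marks lymphoid progenitors that are committed to the B lineage, and Ly6G is a marker of neutrophils.

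All 8 genes lie in one 397 kb stretch of chromosome 15 (GRCm38, chr15:74762056-75159126), which holds 24 annotated entries. From *Ly6d* the order is *Ly6k*, *Ly6e*, *Ly6i*, *Ly6a*, *Ly6c1*, *Ly6c2* and *Ly6g*. *Ly6e* and *Ly6g* are on the plus strand and the other members on the minus strand. The coding sequences fall into close and distant relatives. *Ly6c1* and *Ly6c2* were identical at 97.7% of the columns of their alignment, with 9 of 393 coding bases different. *Ly6a* and *Ly6i* were 86.3% identical. *Ly6d*, *Ly6e* and *Ly6k* were between 45.1% and 52.3% identical to any other member.

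**Figure D1:**
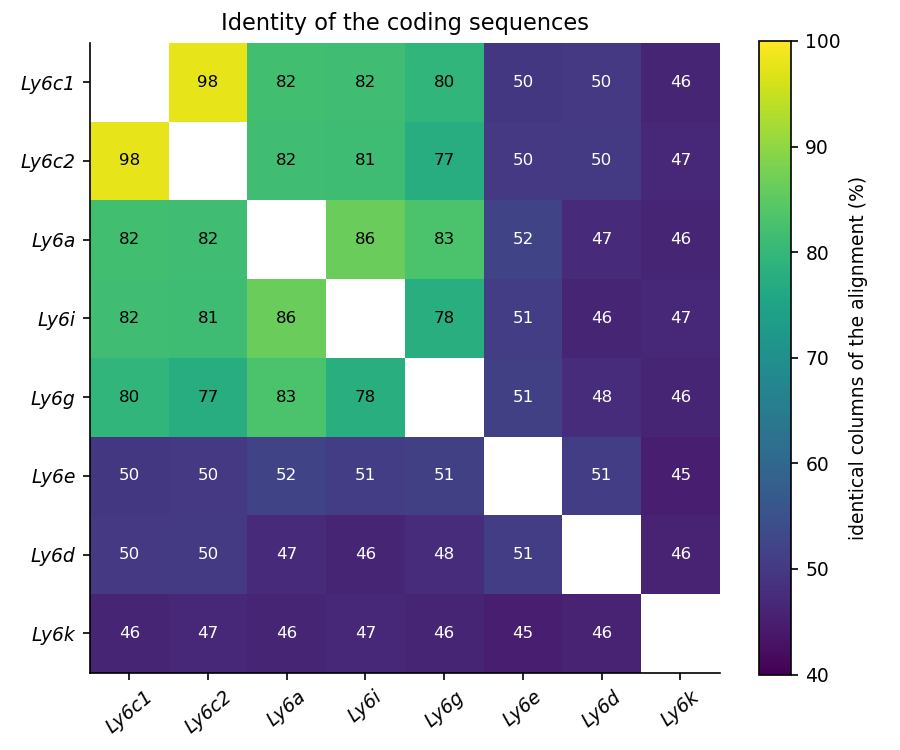
Percent of alignment columns that were identical between the coding sequences of each pair of the 8 members (GENCODE M21, 1 principal transcript a gene). *Ly6c1* and *Ly6c2* are the closest pair, the pairs among *Ly6a*, *Ly6c1*, *Ly6c2*, *Ly6g* and *Ly6i* are at 77.4% or more, and *Ly6d*, *Ly6e* and *Ly6k* stand apart.

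The stretch of the coding sequence in which the Ly6c pair differs most is shown because its bases tell reads of the near copies apart. It spans coding bases 6 to 65 (GENCODE M21, sense strand), and capitals mark the 6 of 60 bases that differ.
Ly6c2: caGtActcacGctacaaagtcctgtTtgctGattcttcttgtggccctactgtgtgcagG
Ly6c1: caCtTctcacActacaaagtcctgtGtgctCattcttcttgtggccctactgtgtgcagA
Along the *Ly6c1* transcript, 56.7% of the 695 windows of 150 bases, the length of 1 read, had a counterpart in *Ly6c2* with at most 2 other bases, and 5.6% had an identical one. For *Ly6c2* the shares were 58.5% and 5.8%. None of the windows of the other 6 members had such a counterpart in another member, *Ly6a* and *Ly6i* included. The split of fragments between *Ly6c1* and *Ly6c2* is therefore less certain than the values of the other 6 members.

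The levels of the 8 genes spanned from among the most abundant RNAs of these bulk libraries to near 0. FPKM is a fragment value per transcript length and library depth, so levels of different genes can be set side by side. Genes listed for other cell types were abundant too, such as *Jchain* (876 FPKM) and *Mpo* (623 FPKM) beside *Cd8b1* (582 FPKM). The levels are therefore those of a mixture. Over the 8 libraries *Ly6e* had a mean of 1832 ± 401 FPKM (SD, n = 8 libraries), rank 55 of the 12166 genes that averaged 1 FPKM or more. *Ly6c2* followed at 649.5 ± 175 FPKM (rank 146) and *Ly6a* at 233 ± 100.1 FPKM (rank 387). *Ly6d* had 30.9 ± 12.9 FPKM and *Ly6k* 7.7 ± 2.55 FPKM. *Ly6c1* (2.23 ± 1.15 FPKM) and *Ly6i* (1.56 ± 0.869 FPKM) were just above the limit of 1 FPKM, and *Ly6g* (0.206 ± 0.167 FPKM) was below it. In this order every member was above the next in 8 of 8 libraries, except that *Ly6c1* was above *Ly6i* in 6 of 8. *Ly6c1* and *Ly6i* thus did not differ in level beyond their spread. *Ly6e*, *Ly6c2* and *Ly6a* together made up nearly all of the summed FPKM of the 8 genes, with 67.0%, 24.9% and 6.48% in the flow-through and 66.1%, 22.6% and 9.84% in the IL-18Rαhi fraction.

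The depth of the 8 libraries, estimated from the FPKM steps of rarely detected genes, was 14800000 to 17800000 fragments, and the summed FPKM was 656715 to 711678. *Il18r1*, the gene of the selected receptor chain IL-18Rα, ranged from 22.2 to 37.2 FPKM in flow-through and from 107 to 116 FPKM in IL-18Rαhi libraries, a difference of 1.85 ± 0.15 on the log2(FPKM + 1) scale (SE, n = 4 mice, adjusted p = 0.000291, limma). Flow-through replicate 1 stood apart. Its summed FPKM of 8 CD8 T-cell identity genes was 1337, against 2144 to 2548 in the other flow-through libraries and 2542 to 2724 in the IL-18Rαhi libraries, and its sum of 8 erythroid genes was the highest of all, 2705. That library also had the lowest flow-through value of *Ly6a*, *Ly6c2*, *Ly6d*, *Ly6e*, *Ly6g*, *Ly6i* and *Ly6k*, so log2 fold changes without it are given below for the members tested. In these bulk samples fewer cells of a type and less RNA per cell cannot be told apart.

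Which of the Ly6 genes differ between IL-18Rαhi and flow-through cells was tested with limma on log2(FPKM + 1) over all 12166 genes, and adjusted p-values are by the Benjamini-Hochberg method. *Ly6a* and *Ly6e* were higher in the IL-18Rαhi fraction, and no member was lower. That is 2 of the 7 members tested, where 14.1% of all genes tested were called higher and 13.7% lower. The median log2 fold change of the 7 members was 0.53, beside -0.02 over all genes tested. Without flow-through replicate 1 these medians were 0.21 and -0.03. *Ly6g* was below the limit and not part of this fit. Equal replicate numbers in the labels were taken to mean the same mouse, and the study states no paired design. All values given within a mouse rest on this reading. A block for the mouse left 5 of 7 members called higher (*Ly6a*, *Ly6c2*, *Ly6d*, *Ly6e* and *Ly6i*). The block called 22.2% of all genes higher. With every library scaled to equal levels of the CD8 T-cell identity genes, only *Ly6a* was called, 1 of 7, where 2.89% of all genes were called higher. This scaling shifted the median over all genes to -0.36 and that over the 7 members to 0.19 (log2), and changed the split of calls over all genes from 1720 higher and 1664 lower to 351 higher and 834 lower. With the block and this scaling together, a fit added after the values had been seen, *Ly6a* was again the only member called, against 3.22% of all genes called higher.

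**Figure D2:**
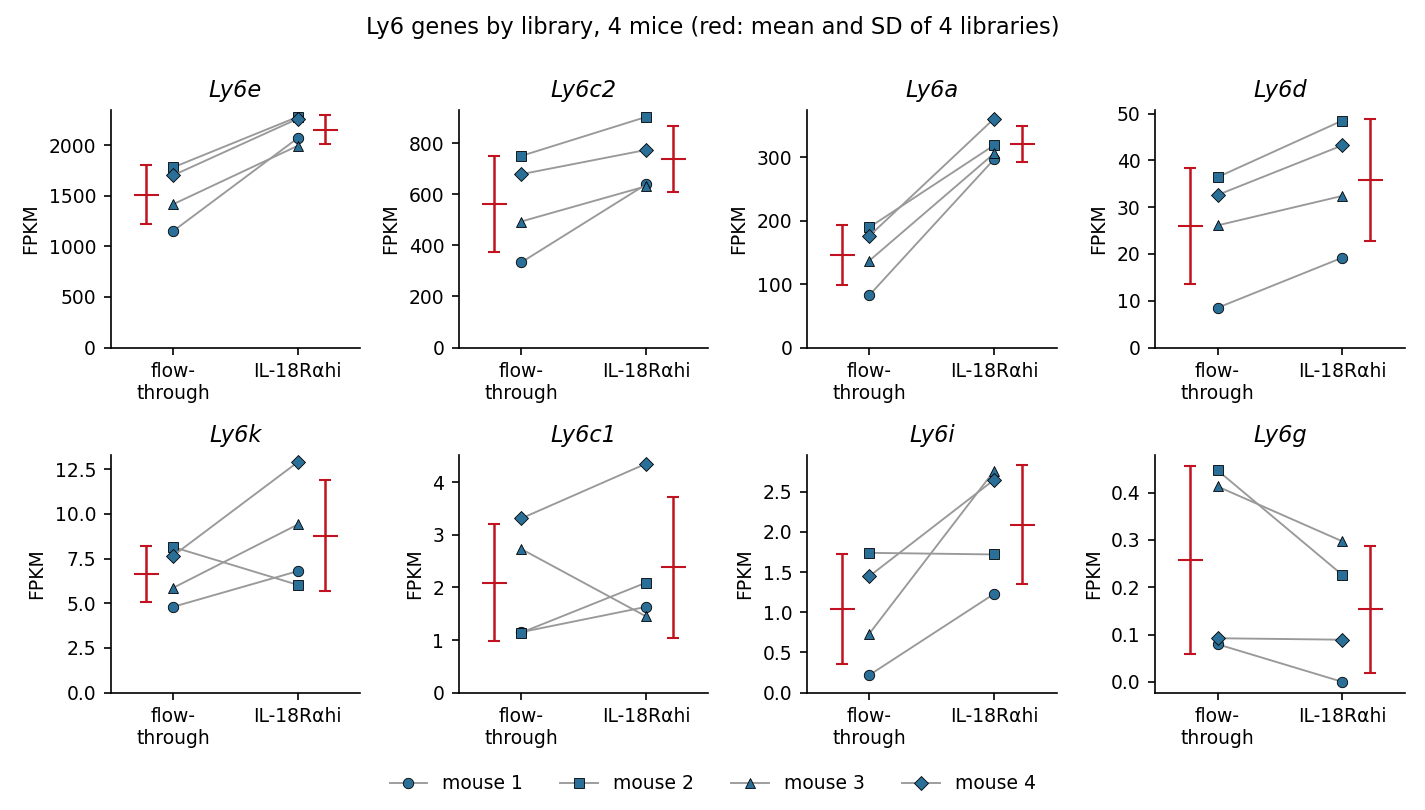
FPKM of the 8 members in the flow-through and IL-18Rαhi library of each mouse, each panel with its own linear axis, lines joining the libraries of 1 mouse and red bars giving the mean and SD of 4 libraries. The fractions do not overlap for *Ly6e* and *Ly6a*, all 4 mice rise for *Ly6c2* and *Ly6d* as well, and mouse 1 (circles) starts lowest for most genes.

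*Ly6a* encodes Sca-1, a GPI-anchored antigen that is used as a marker of memory and interferon-exposed T cells as well as of blood stem cells. It was at 82.7, 189.6, 137 and 176 FPKM in flow-through replicates 1 to 4 and at 297, 319, 306 and 361 FPKM in IL-18Rαhi replicates 1 to 4. Every IL-18Rαhi library was above every flow-through library, and the IL-18Rαhi libraries lay closer together (321 ± 28.0 FPKM against 146 ± 47.9 FPKM, mean ± SD, n = 4). Groups of 4 that did not overlap in this direction were found for 16.4% of all genes tested, and among the 7 members tested for *Ly6a* and *Ly6e*. Within a mouse *Ly6a* was 1.68 to 3.59 times as high in the IL-18Rαhi fraction. Its log2 fold change was 1.19 ± 0.24 (SE; 95% interval 0.65 to 1.73; adjusted p = 0.00851, limma).

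The call of *Ly6a* held in every fit that was run. The log2 fold change was 0.85 with T-cell scaling (adjusted p = 0.0129, limma). Leaving out flow-through replicate 1 gave 0.94 (adjusted p = 0.00183, limma). Genes listed for NK cells and for monocytes and macrophages were also mostly higher in the IL-18Rαhi fraction. The summed FPKM of 9 NK-cell genes ranged from 44.7 to 90.9 in flow-through and from 188 to 294 in IL-18Rαhi libraries, with 7 of the 8 genes above the limit higher. *Eomes* of this list was also listed as a CD8 memory marker. The paper names *Ncr1* and *Klrb1c* among genes raised in its IL-18Rαhi-enriched T cells. That statement rests on these same libraries, so it cannot tell NK cells from T cells as the source. The most abundant genes of the list were *Cd160* (means of 38.0 and 99.8 FPKM in flow-through and IL-18Rαhi libraries) and *Gzma* (14.4 and 69.2 FPKM). The sum of 13 monocyte and macrophage genes was 133 to 442 and 428 to 978, so that the fractions overlapped, with 6 of 10 higher. With T-cell scaling 5 of 8 NK-cell genes and 3 of 10 monocyte and macrophage genes were called higher. None of the genes of these lists was at 0 in all libraries, and their part in the difference of *Ly6a* was not tested. Stem and progenitor cells are also known for Sca-1. The sum of 10 genes listed for them was 145 to 178 in flow-through and 50.8 to 87.4 in IL-18Rαhi libraries, with 1 of 8 higher and 5 lower. Most of that sum was *Myb* (means of 82.9 and 26.8 FPKM) and *Kit* (32.3 and 14.4 FPKM). The gene called higher was *Flt3* (4.11 and 10.3 FPKM, adjusted p = 0.0327, limma). The part of these cells in the values of *Ly6a* was not tested either.

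*Ly6e* is a ubiquitous, interferon-inducible member. Its level was 1150.1, 1780.3, 1416 and 1702 FPKM in flow-through replicates 1 to 4. In IL-18Rαhi replicates 1 to 4 it was 2071, 2281, 1995 and 2262 FPKM. The groups did not overlap. The mean rose from 1512 ± 288 to 2152 ± 142 FPKM (SD, n = 4), a log2 fold change of 0.53 ± 0.14 (SE; 95% interval 0.21 to 0.85; adjusted p = 0.0256, limma). The adjusted p was 0.0062 with the mouse as a block. The call did not survive T-cell scaling, where the log2 fold change was 0.19 and the adjusted p 0.348 (limma). Unlike for *Ly6d*, leaving out flow-through replicate 1 kept most of the difference (0.40, adjusted p = 0.0223, limma), whereas leaving out flow-through replicate 3 or IL-18Rαhi replicate 2 or 4 took the call away, with adjusted p-values of 0.0697 to 0.0743.

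*Ly6c2* gives most of the Ly6C antigen that is stained on memory CD8+ T cells and inflammatory monocytes. It was at 333, 749.5, 493 and 678 FPKM in flow-through replicates 1 to 4 and at 638, 902, 631 and 773 FPKM in IL-18Rαhi replicates 1 to 4. All 4 mice had the higher value in the IL-18Rαhi fraction, by 1.14 to 1.92 times. The groups overlapped, since flow-through replicates 2 and 4 were above IL-18Rαhi replicates 1 and 3. The log2 fold change was 0.44 ± 0.25 (SE; 95% interval -0.13 to 1.01) and did not pass the test (adjusted p = 0.221, limma). With the mouse as a block it did (adjusted p = 0.0311, limma). The value was 0.10 after T-cell scaling and 0.21 when flow-through replicate 1 was left out, neither of them called (adjusted p = 0.681 and 0.424, limma). A value that was higher in all 4 mice was found for 29.2% of all genes tested, and for *Ly6a*, *Ly6c2*, *Ly6d* and *Ly6e* among the 7 members tested.

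*Ly6c1*, the near copy of *Ly6c2* that is best known from endothelial cells, was low. It was at 1.15, 1.14, 2.73 and 3.31 FPKM in flow-through replicates 1 to 4 and 1.63, 2.09, 1.45 and 4.35 FPKM in IL-18Rαhi replicates 1 to 4. The groups overlapped almost fully, and mouse 4 was highest in both. The log2 fold change was 0.13 ± 0.32 (SE; 95% interval -0.60 to 0.86; adjusted p = 0.784, limma), and it turned to -0.21 with T-cell scaling and to -0.02 when flow-through replicate 1 was left out. *Ly6c1* made up 0.152% to 0.56% of the summed FPKM of *Ly6c1* and *Ly6c2* in the 8 libraries. The sum of both, which does not depend on how fragments were split between them, averaged 565 ± 188 FPKM for flow-through and 738 ± 129 FPKM for IL-18Rαhi libraries (SD, n = 4). The 9 endothelial genes summed to between 49.2 and 60.3 FPKM in flow-through and between 32.6 and 35.7 FPKM in IL-18Rαhi libraries. Most of that sum came from *Pecam1* (means of 25.3 and 22.9 FPKM) and *Egfl7* (25.9 and 8.37 FPKM). The other 7 of the 9 genes were below a mean of 1 FPKM and went in both directions.

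*Ly6i* lies next to *Ly6a* and is its closest relative in the set. It was at 0.22, 1.74, 0.736 and 1.45 FPKM in flow-through replicates 1 to 4 and 1.23, 1.72, 2.76 and 2.65 FPKM in IL-18Rαhi replicates 1 to 4. Mouse 2 had nearly the same value in both fractions, and the other 3 mice were higher in the IL-18Rαhi fraction. The log2 fold change of 0.64 ± 0.28 (SE; 95% interval -0.01 to 1.29) did not pass the test (adjusted p = 0.127, limma), and passed it with the mouse as a block (adjusted p = 0.0355, limma). The size of the difference depended on the settings, at 1.16 with a pseudocount of 0.1, 0.23 with a pseudocount of 5, 0.30 after T-cell scaling and 0.41 when flow-through replicate 1 was left out, none of them called (adjusted p = 0.12 to 0.341, limma). Beside *Ly6a* the gene was faint. It made up 0.632 ± 0.292% of the sum of *Ly6a* and *Ly6i* in the flow-through and 0.643 ± 0.212% in the IL-18Rαhi fraction (SD, n = 4), a difference well within the spread.

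*Ly6d*, the B-lineage progenitor antigen, varied more between mice than between fractions. It was at 8.49, 36.4, 26.1 and 32.6 FPKM in flow-through replicates 1 to 4 and at 19.2, 48.5, 32.4 and 43.2 FPKM in IL-18Rαhi replicates 1 to 4. Mouse 1 was lowest and mouse 2 highest in both fractions, and within a mouse the IL-18Rαhi value was 1.24 to 2.26 times the flow-through value. The log2 fold change was 0.55 ± 0.45 (SE; 95% interval -0.49 to 1.58; adjusted p = 0.393, limma), and the block brought the adjusted p to 0.0171. Without flow-through replicate 1 the log2 fold change was 0.10 (adjusted p = 0.821, limma). Markers of the B lineage had the same lowest mouse. The summed FPKM of 9 plasma-cell genes was 405, 1457, 711 and 1152 in flow-through replicates 1 to 4 and 724, 1772, 1188 and 1747 in IL-18Rαhi replicates 1 to 4, and that of 12 B-cell genes was 28.7 to 75.9 and 45.0 to 99.4. Of the plasma-cell genes 2 of 9 were called higher, or 9 of 9 under the block. The 2 were *Irf4* and *Prdm1*, and *Prdm1* was also listed as a CD8 memory and effector-memory marker. *Jchain*, the most abundant gene of the list, was not called without the block (adjusted p = 0.39, limma). The part of plasma cells and B cells in the values of *Ly6d* was not tested.

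*Ly6k*, which is best known from the testis, was at 4.80, 8.15, 5.86 and 7.66 FPKM in flow-through replicates 1 to 4 and at 6.80, 6.03, 9.41 and 12.9 FPKM in IL-18Rαhi replicates 1 to 4. Mouse 2 was lower in the IL-18Rαhi fraction and the other 3 mice were higher. The log2 fold change was 0.33 ± 0.23 (SE; 95% interval -0.20 to 0.87; adjusted p = 0.315, limma). The block left it uncalled (adjusted p = 0.171, limma), and T-cell scaling took it to -0.005. It was 0.21 when flow-through replicate 1 was left out and 0.15 when IL-18Rαhi replicate 4 was left out, neither of them called (adjusted p = 0.548 and 0.643, limma). The gene overlaps the antisense entry *Gm17189*, which was at a mean of 0.00495 FPKM, and the estimates were made with the default library setting of Cufflinks, which does not use strand, although the kit was stranded.

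*Ly6g*, the neutrophil antigen, was the only member below 1 FPKM. It was at 0.0795, 0.447, 0.413 and 0.0922 FPKM in flow-through replicates 1 to 4, and at 0, 0.226, 0.297 and 0.0891 FPKM in IL-18Rαhi replicates 1 to 4. Each mouse had less in the IL-18Rαhi fraction, but the groups overlapped fully and the difference between the means of 0.258 and 0.153 FPKM did not pass the test (p = 0.40, exact two-sided permutation test over 70 arrangements, smallest possible p 0.0286). The low level of *Ly6g* stood beside abundant RNA of some neutrophil granule genes and low RNA of others. The 15 genes of neutrophils and their precursors summed to between 601 and 3440 FPKM in flow-through and between 626 and 3911 FPKM in IL-18Rαhi libraries, led by *Mpo*, which encodes myeloperoxidase (680 ± 507 and 567 ± 428 FPKM, SD, n = 4). Over the 8 libraries *Mpo*, *Prtn3*, *Elane* and *Ctsg* averaged 623, 399, 369 and 145 FPKM, and *S100a8* and *S100a9* 116 and 76.2 FPKM. The other genes of the list averaged from 0.377 (*Cxcr2*) to 10.9 FPKM (*Ngp*), with *Mmp9* at 0.773, *Retnlg* at 1.19, *Mmp8* at 1.46 and *Ltf* at 3.0 FPKM. Mouse 2 had the highest and mouse 1 the lowest sum of the 15 genes in both fractions, whereas *Ly6g* was high in mice 2 and 3.

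**Figure D3:**
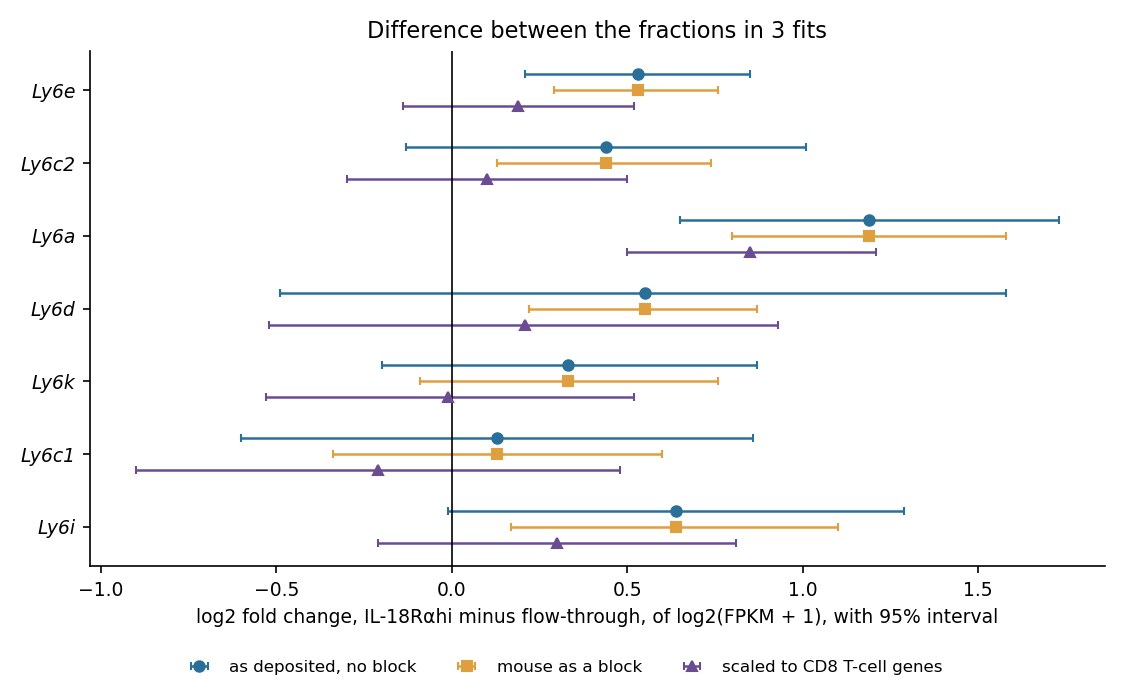
Log2 fold change (IL-18Rαhi minus flow-through, on log2(FPKM + 1)) of the 7 members tested with its 95% interval, from the fit as deposited, with the mouse as a block, and after scaling to the CD8 T-cell identity genes. The interval of *Ly6a* stays above 0 in all 3 fits, that of *Ly6e* in the first and second, and the block narrows the interval of *Ly6d* most.

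Ratios between members within a library do not depend on how the libraries are scaled. They were chosen after the values had been seen and are given with no test. The ratio of *Ly6a* to *Ly6c2* was 0.248, 0.253, 0.278 and 0.26 in flow-through replicates 1 to 4. In IL-18Rαhi replicates 1 to 4 it was 0.466, 0.353, 0.486 and 0.466. In this ratio flow-through replicate 1 lay with the other flow-through libraries, and the fractions did not overlap. The ratio of *Ly6a* to *Ly6e* averaged 0.0946 ± 0.0157 among flow-through and 0.149 ± 0.00907 among IL-18Rαhi libraries (SD, n = 4), also without overlap. The ratio of *Ly6c2* to *Ly6e* overlapped, at 0.364 ± 0.0584 and 0.34 ± 0.0395. *Ly6a* was thus higher relative to both of the other abundant members.

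**Figure D4:**
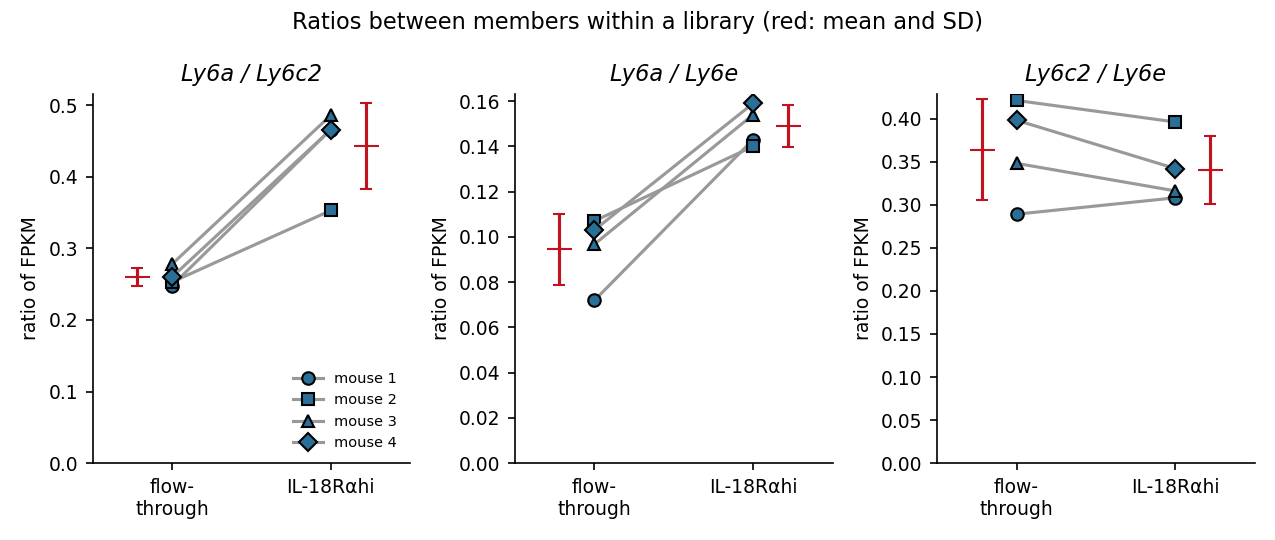
Ratios of FPKM between the 3 most abundant members in each library, by mouse, with red bars for the mean and SD of 4 libraries. Both ratios with *Ly6a* on top separate the fractions, with IL-18Rαhi replicate 2 at 0.353 the lowest for *Ly6a* to *Ly6c2*, and the ratio of *Ly6c2* to *Ly6e* does not.

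Besides the members, only 2 entries of the cluster had a mean of at least 1 FPKM. *I830127L07Rik* (chr15:75131377-75135128, minus strand), the next entry beyond *Ly6c2*, is a transcribed pseudogene in GENCODE and the gene *Ly6a2* in RefSeq. It was at 11.1, 39.8, 14.4 and 23.4 FPKM in flow-through replicates 1 to 4 and at 25.9, 78.0, 30.5 and 43.3 FPKM in IL-18Rαhi replicates 1 to 4. It was 1.85 to 2.34 times as high in the IL-18Rαhi fraction of each mouse, and its log2 fold change of 1.00 ± 0.44 (SE) was called with the mouse as a block (adjusted p = 0.000278, limma) and not without it (adjusted p = 0.121, limma). After T-cell scaling the value was 0.66 and was not called, either alone (adjusted p = 0.206, limma) or with the block (adjusted p = 0.0653, limma). *Gm5960*, a pseudogene between *Ly6c1* and *Ly6c2*, averaged 2.81 ± 1.21 FPKM among flow-through and 3.1 ± 2.89 FPKM among IL-18Rαhi libraries (SD, n = 4) and was not called.

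**Figure D5:**
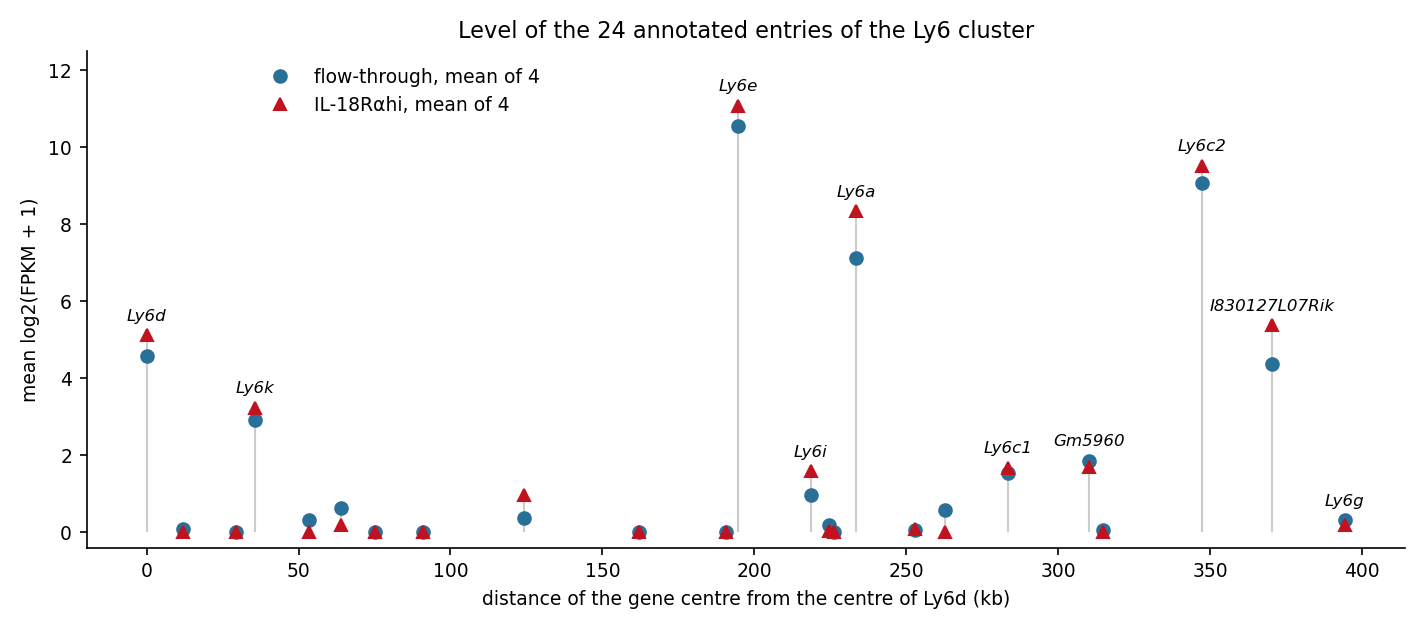
Mean log2(FPKM + 1) of 4 flow-through (circles) and 4 IL-18Rαhi libraries (triangles) for the 24 annotated entries of the cluster, by distance in kb from *Ly6d*. *Ly6e*, *Ly6c2* and *Ly6a* tower over neighbours near 0, and *Ly6i* and *Ly6c1*, which lie between them, are low.

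The sequences before the start sites of *Ly6c2* and *Ly6a2* are shown because they are nearly the same while the levels are not. The 250 bases before each start (RefSeq, GRCm38.p6, minus strand, 5′ to 3′) aligned with 4 substitutions, and capitals mark substituted or unaligned bases. *Ly6c2* is at chr15:75111972-75112221 and *Ly6a2* at chr15:75135129-75135378.
Ly6c2: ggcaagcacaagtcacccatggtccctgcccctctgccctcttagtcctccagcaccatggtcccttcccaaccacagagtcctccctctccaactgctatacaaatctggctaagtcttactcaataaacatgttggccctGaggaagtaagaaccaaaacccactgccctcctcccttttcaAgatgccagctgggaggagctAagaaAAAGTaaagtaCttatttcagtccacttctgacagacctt
Ly6a2: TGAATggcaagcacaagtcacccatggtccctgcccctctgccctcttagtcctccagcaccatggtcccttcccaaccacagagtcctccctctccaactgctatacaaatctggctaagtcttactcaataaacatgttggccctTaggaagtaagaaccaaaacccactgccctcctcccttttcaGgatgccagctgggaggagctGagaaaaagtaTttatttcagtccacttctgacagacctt
The level of *I830127L07Rik* was 0.0293 to 0.0532 of that of *Ly6c2* in flow-through libraries and 0.0407 to 0.0864 of it in IL-18Rαhi libraries. The RefSeq table used here held start-site sequences of 3 members, *Ly6c1*, *Ly6c2* and *Ly6g*.

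Of 30 further genes of the wider Ly6/uPAR family, 5 had a mean of at least 1 FPKM, of which 1 was called higher and 2 lower. Their median log2 fold change was -0.29. *Ly6g5b*, a member of the family in the major histocompatibility complex on chromosome 17, was the one called higher. It ranged from 2.47 to 4.66 FPKM in flow-through and from 11.1 to 17.7 FPKM in IL-18Rαhi libraries (log2 fold change 1.79 ± 0.19, SE, adjusted p = 0.000905, limma), so its relative rise exceeded that of every one of the 8 members. *Cd59a*, an inhibitor of the complement membrane attack complex, fell by 1.77 on the log2 scale (8.59 ± 2.97 to 1.89 ± 1.13 FPKM, SD, n = 4, adjusted p = 0.00521, limma). *Lypd6b* fell by 1.33 (adjusted p = 0.00347, limma). *Plaur*, the urokinase receptor, and *Cd59b* were not called (log2 fold changes of 0.14 and -0.29).

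Other lists give the setting in which the members moved, and none of them was tested as a list. Their counts stand beside 14.1% of all genes tested that were called higher and 13.7% called lower. With the block, 2705 of all 12166 genes were called higher and 2763 lower, and with T-cell scaling 351 higher and 834 lower. Of 14 other GPI-anchored proteins of lymphocytes, 11 were above 1 FPKM, with 5 higher and 2 lower and a median of 0.28 (2 and 2 with T-cell scaling, median -0.05). *Cd48*, a ligand of the receptor CD244, rose by a log2 fold change of 1.32, *Cd160* by 1.42, and the ADP-ribosyltransferase gene *Art2b* fell by 1.27. The genes that build and attach the GPI anchor did not rise with *Ly6a* and *Ly6e*. Of 26 above the limit, 0 were higher and 6 lower (limma), with 1 higher and 9 lower in the block and 0 and 1 with T-cell scaling, led by *Pigw*, which fell by 0.76. Of 22 interferon-stimulated genes, 4 were higher and 1 lower with a median of 0.14, among them *Mx1* (0.96) and *Oas3* (0.93), which rose, and *Oasl1*, which fell by 1.1 on the log2 scale. Of 16 CD8 memory and effector-memory markers, 10 were higher and 0 lower with a median of 0.81, led by *Tbx21*, which encodes T-bet (1.69), *Cxcr3* (1.53) and *Il2rb* (1.35). Of 11 naive T-cell genes, 0 were higher and 5 lower with a median of -0.72, led by *Igfbp4*, *Ccr7* and *Bach2*. With T-cell scaling the interferon list had 1 gene higher and 2 lower, with *Mx1* no longer called, and its median turned to -0.20. The memory list then had 6 higher and a median of 0.48, beside -0.36 over all genes. Of the cell-type lists not described above, 1 of 8 B-cell genes above the limit was higher, 2 of 7 plasmacytoid dendritic cell genes were higher and 1 lower, and 1 of 8 erythroid genes was lower (5 of 8 with the block). Of 5 melanoma genes, 4 (*Dct*, *Mlana*, *Tyr* and *Tyrp1*) had the value 0 in each of the 8 libraries.

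The genes most like each abundant member over the 8 libraries were found by Pearson correlation of log2(FPKM + 1) among the 9329 genes averaging 5 FPKM or more. All points share the fractions and the mice, so these correlations are descriptions. *Ly6a* was closest to *Ankrd44* (r = 0.998), *Lasp1* (0.996) and *Slc9a9* (0.995). *Ly6e* was closest to *Rcbtb2*, *Itm2c* and *Glipr1* (0.993 to 0.996), and *Ly6c2* to *Ctsa*, *Sdf4* and *Tnfrsf1a* (0.990 to 0.995). *Ly6d* was closest to a pair of immunoglobulin kappa variable segments, *Igkv9-120* (0.989) and *Igkv8-24* (0.987), and to *Tcirg1* (0.986). *Ly6k* had weaker partners, *Wtap*, *Zfp120* and *Klc3* (0.931 to 0.949). Among the members *Ly6a* and *Ly6e* were most alike (0.99), then *Ly6c2* with *Ly6d* (0.92) and with *Ly6e* (0.91), and *Ly6k* was least like the others (0.57 to 0.69).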

How the data were processed

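RNA of 8 libraries was deposited as 1 table of FPKM values. The authors made poly(A) stranded libraries, sequenced 150-base paired ends, mapped them to mm10 with TopHat and estimated FPKM with Cufflinks 2.1.1 with corrections for fragment bias and for reads that map to several places, which is how fragments of near copies were divided. The annotation release is not given in the sources used here. Gene identifiers were matched to GENCODE M21 (98.9% found).

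Groups and replicate numbers came from the labels, and equal replicate numbers were taken as the same mouse. The 12166 genes that averaged 1 FPKM or more were compared on log2(FPKM + 1) by limma 3.58.1 (R 4.3.3), using a mean-variance trend and no block. The adjustment for multiple tests was that of Benjamini and Hochberg, with a threshold of 0.05. On this scale changes of weakly expressed genes come out too small. The fit was tested on simulated data. Libraries of the same replicate number deviated together (correlations 0.71, 0.67, 0.43 and 0.57), so values with the mouse as a block are given where they change a call. T-cell scaling equalised the mean log2(FPKM + 1) of 8 CD8 T-cell identity genes. Named genes were the members, *Il18r1*, family members and cluster entries of at least 1 FPKM, up to 3 called genes with the largest changes of each list, the 2 most abundant of a cell-type list, and the 3 genes most like each member. Coding sequences were aligned globally. The members and lists were chosen with earlier results of these data known. Alternatives were pseudocounts of 0.1 and 5, other filters, 2 scalings, the block, no trend, and leaving out each library. FPKM carries no exact depth, so no counting intervals were given.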

Additional observations from a re-analysis of the deposited data

Results flagged for a closer look

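Of 48 groups of 4 libraries examined, 2 had a library far from the other 3, where chance would give about 1 in 20. The share of *Ly6c1* in *Ly6c1* and *Ly6c2* was 0.256%, 0.231%, 0.229% and 0.56% in IL-18Rαhi replicates 1 to 4, and the gap to replicate 4 was 0.918 of the range. The share in the flow-through ran from 0.152% to 0.552%, so the high value lay close to the highest of the control libraries. The ratio of *Ly6a* to *Ly6c2* in IL-18Rαhi replicate 2 was 0.353, with a gap of 0.85 of the range to the other 3. Replicate 2 also had the highest *Ly6c2* level of all libraries (902 FPKM) and the highest sum of monocyte and macrophage genes (978 FPKM), and the part of these cells in the ratio was not tested.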

How the results depend on the processing

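The number of members called higher was 2 in the fit as reported, 5 with the mouse as a replicate block, and 1 with no filter, with T-cell scaling and with the block and T-cell scaling together, and 1 to 2 when a library was left out. No member was called lower in any fit. *Ly6a* was called in all 17 alternatives and *Il18r1* likewise, with log2 fold changes of 0.94 to 1.34 and 1.71 to 1.95 when a library was left out. *Ly6e* lost its call with no filter (adjusted p = 0.0819, limma), with T-cell scaling, and when leaving out flow-through replicate 3, IL-18Rαhi replicate 2 or IL-18Rαhi replicate 4. The block added *Ly6c2*, *Ly6d* and *Ly6i*. *Ly6c1* and *Ly6k*, neither of them called, changed sign. *Ly6c1* was -0.21 with T-cell scaling, with or without the block, and -0.12 to 0.32 when a library was left out (-0.02 without flow-through replicate 1 or 2, -0.12 without IL-18Rαhi replicate 4), and *Ly6k* was -0.005 with T-cell scaling, with or without the block. The cause of these changes was not tested. The fit with the block and T-cell scaling was chosen after seeing the data. The 4 mice limit the precision, and for *Ly6c1*, *Ly6i* and *Ly6g*, at about 2 FPKM or less, the pseudocount shrinks any difference.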
